A study of Mus musculus with 8 samples.

Results

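The genes described here encode proteins that hold epithelial cells together: 5 claudins (Cldn1, Cldn3, Cldn4, Cldn7 and Cldn8), occludin (Ocln), the scaffold protein ZO-1 (Tjp1), the junctional adhesion molecule JAM-A (F11r), E-cadherin (Cdh1) and EpCAM (Epcam). They are a named list of 10 genes out of 22180 with an array probe that the platform annotation assigns to 1 gene symbol. Where a gene had several such probes, the one with the highest mean over the 8 tumours was taken, which concerned Cdh1 alone. Probes were thus selected on their mean signal. The list itself was drawn up with earlier results of these data known, genotype differences included, so the comparisons below describe its members and are not independent support for a pattern among them. All 10 genes lay above the level under which genes were left out as dim, and all 10 were tested. Total RNA of 8 primary mammary tumours, all from FVB transgenic mice, had been hybridised to Affymetrix arrays, and all 8 carried NeuNT, a form of the receptor tyrosine kinase ErbB2. NeuNT was the only modification named for 4 tumours, and in the other 4, NeuNT/H1074R, p110α was mutated as well, the subunit of PI3K that makes its lipid product; the series title writes this mutation as H1047R. The labels state neither mouse age nor the promoter behind each transgene. Nothing in the labels says that each tumour came from a mouse of its own, so p-values reflect only how these 8 tumours vary.

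Tight junctions seal the space between neighbouring epithelial cells near their apical side. Claudins and occludin form their strands, and most claudins end in a short motif that binds the PDZ domains of ZO-1, which ties the strands to actin. Some claudins tighten the barrier and others, such as claudin-2, form pores for small cations and water. E-cadherin builds the adherens junction just below, and EpCAM, a surface glycoprotein of epithelial cells, associates with claudin-7. In breast cancer, low levels of claudins 3, 4 and 7, occludin, E-cadherin and EpCAM together define a class of tumours called claudin-low.

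Start-site windows are printed for Cldn3 and Cldn4, which are neighbouring genes on mouse chromosome 5 with no protein-coding gene between them, and for Epcam and F11r, the members whose signals ran most closely with those of Cldn3 and Cldn4. The windows are RefSeq sequences of build GRCm38.p6, 5′ to 3′ on the gene's strand, from 250 bases before to 50 bases after the annotated start. Capitals mark the E-box CAGGTG or its reverse complement CACCTG, the element bound by repressors of the Snail and ZEB families. Cldn3 is on the plus strand at chr5:134985964-134986263, Cldn4 on the minus strand at chr5:134946885-134947184, Epcam on the plus strand at chr17:87635729-87636028 and F11r on the plus strand at chr1:171437311-171437610.
Cldn3: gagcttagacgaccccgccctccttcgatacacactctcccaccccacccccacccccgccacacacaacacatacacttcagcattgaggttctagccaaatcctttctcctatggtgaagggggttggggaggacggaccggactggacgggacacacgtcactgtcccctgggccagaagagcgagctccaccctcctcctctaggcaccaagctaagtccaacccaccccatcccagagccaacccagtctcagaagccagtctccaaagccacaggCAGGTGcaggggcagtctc
Cldn4: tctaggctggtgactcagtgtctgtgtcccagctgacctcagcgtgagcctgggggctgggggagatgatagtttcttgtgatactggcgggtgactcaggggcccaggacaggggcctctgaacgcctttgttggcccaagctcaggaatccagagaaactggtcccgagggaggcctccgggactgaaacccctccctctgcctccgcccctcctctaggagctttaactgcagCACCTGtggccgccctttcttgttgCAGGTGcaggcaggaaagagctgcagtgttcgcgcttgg
Epcam: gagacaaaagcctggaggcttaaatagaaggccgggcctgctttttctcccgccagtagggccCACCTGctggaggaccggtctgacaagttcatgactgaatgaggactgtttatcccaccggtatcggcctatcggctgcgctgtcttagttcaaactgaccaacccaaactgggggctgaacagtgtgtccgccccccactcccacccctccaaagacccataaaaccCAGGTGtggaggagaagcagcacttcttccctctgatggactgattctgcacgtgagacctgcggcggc
F11r: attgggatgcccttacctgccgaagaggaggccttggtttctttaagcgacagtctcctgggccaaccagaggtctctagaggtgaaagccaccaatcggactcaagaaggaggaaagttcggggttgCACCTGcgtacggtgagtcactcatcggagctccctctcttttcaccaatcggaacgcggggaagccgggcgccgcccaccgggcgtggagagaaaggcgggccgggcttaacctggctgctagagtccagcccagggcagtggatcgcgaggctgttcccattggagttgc

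On the strand shown, counting from the start site, the element began at position 32 in Cldn3, at positions −14 and 12 in Cldn4, at positions −187 and −19 in Epcam and at position −122 in F11r. RefSeq windows were found for 8 of the 10 members, 10 windows in all because Cldn7 and Ocln have 2 each, and those of Ocln overlap. The E-box, searched on both strands, was in 7 of the 10 windows and in windows of 6 of the 8 members. The windows of Ocln share a site (position 8 in the first and −213 in the second), which counts in both. The windows of Cldn1 and Tjp1 did not hold the E-box. Among all 32851 windows of 300 bases in the same table it was in 20.2%. The element AACCNGTT, recognised by Grainyhead-like factors, was in 0 of the 10 windows and in 2.09% of all windows. These are matches of letters, and binding was not measured.

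All arrays had nearly the same median log2 signal, from 4.81 to 4.87. The tumours held epithelial RNA throughout: Krt8, a keratin of luminal epithelium, lay between 9.78 and 10.89, well above the level of 4.06 under which genes counted as dim. Erbb2, the gene of which NeuNT is a form, lay between 8.73 and 10.28. Several tumours stood apart. NeuNT/H1074R replicates 1 and 3 had high skeletal muscle genes, with list means of 1.42 and 1.20 above the tumour average against −0.62 to −0.21 in the others, and all 14 tested genes of that list had a higher mean in NeuNT/H1074R. These 2 tumours also exceeded NeuNT/H1074R replicates 2 and 4 on other lists. Basal markers were 0.76 and 1.06 (against −1.01 and −1.06), and squamous and hair markers 0.94 and 0.39 (against −0.95 and −1.05). Luminal keratins were 0.62 and 0.74 (against −0.11 and −0.55). Krt19 ranged most widely of these keratins, from 5.37 to 11.52. Krt18 was lower in NeuNT/H1074R replicate 1 (10.74) than in replicates 2 and 4 (11.10 and 11.16). Fits without these 2 tumours therefore leave out high muscle, basal, squamous and keratin signals together, which cannot be told apart there. NeuNT replicate 2 had the highest basal markers (1.93, against −1.12 to 1.06 elsewhere) and NeuNT replicate 4 the highest squamous and hair markers (3.89, against −1.56 to 0.94). Differences of the 10 genes are also given without the 2 tumours high in muscle genes, and without NeuNT replicates 2 and 4, where that moved them by over 1.5 times. The fit without NeuNT replicates 2 and 4 was added after the data had been seen. It sets NeuNT tumours of low basal markers (−1.05 and −1.12) against NeuNT/H1074R tumours of low and high basal markers. NeuNT replicate 2 was the lowest tumour in Cldn1, Cldn3, Cldn7 and Epcam, so leaving it out by itself shifts their differences downward. In a bulk sample, fewer cells of a type and less RNA per cell cannot be told apart.

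The genotype comparison asks whether ErbB2-driven tumours with mutant p110α carry other junction transcripts than those without it. Cldn4 and Cldn8 had the largest differences among the 10 genes, and both were lower on average in NeuNT/H1074R. Epcam, Ocln, Tjp1 and Cldn3 differed by less than 0.1 on the log2 scale, and Cdh1 was 0.20 higher. None of the 10 passed the test across all genes, and the values of the genotypes overlapped for each of them. In the fit of 16635 genes with limma, 0 genes (0%) had an adjusted p under 0.05, and 635 (3.82%) had an unadjusted p under 0.05, among them 2 of the 10, Cldn4 and Cldn8, both lower, as were 1.71% of all genes at that p. Values did not overlap between genotypes for 447 genes (2.69%; 1.1% lower and 1.59% higher in NeuNT/H1074R), and for 0 of the 10. Of the 10 differences 3 were above and 7 below 0, with a median of −0.13, against a median of −0.00 over all tested genes. The median residual SD of the 10 genes, 0.338, compares with 0.248 over all tested genes.

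**Figure D1:**
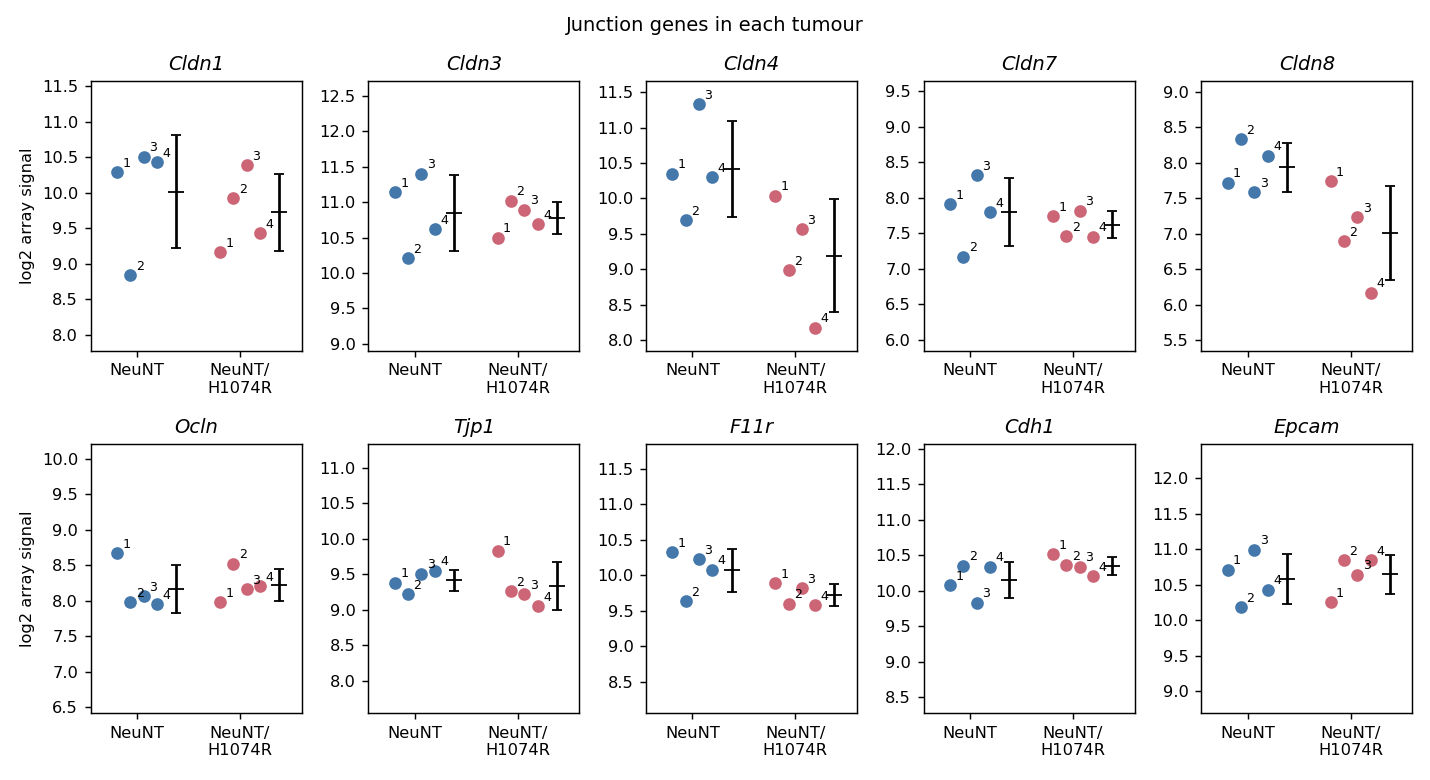
Log2 array signal of each of the 10 junction genes, one point per tumour with its replicate number, NeuNT in blue and NeuNT/H1074R in red; black marks are the group mean ± SD (n = 4), and all panels span the same number of log2 units. In Cldn4 and Cldn8, 3 of the 4 NeuNT/H1074R tumours lie below every NeuNT tumour and replicate 4 is the lowest, while the groups overlap in all 10 panels.

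Cldn4 (probe 17453496), a barrier-forming claudin, had log2 signals of 10.35, 9.69, 11.33 and 10.30 in NeuNT replicates 1 to 4 and of 10.04, 8.99, 9.57 and 8.18 in NeuNT/H1074R replicates 1 to 4. The 3 lowest signals of the series belonged to NeuNT/H1074R replicates 4, 2 and 3, and replicate 1 lay among the NeuNT tumours. Means were 10.42 ± 0.68 (SD, n = 4) in NeuNT and 9.19 ± 0.80 (SD, n = 4) in NeuNT/H1074R, a log2 difference of −1.22 ± 0.45 (SE), or 2.33-fold lower. Its unadjusted 95% interval ran from −2.25 to −0.20, and the difference did not pass (limma, adjusted p = 0.978). Its residual SD within genotypes, 0.74, was at percentile 93.3 of all tested genes. Left out in turn, no single tumour moved the difference beyond −1.50 or above −0.88. Without both tumours with high muscle genes it was −1.84, and the groups then no longer overlapped, as they then did not for 19.6% of all genes.

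Cldn8 (probe 17331828), a claudin of tight epithelia such as the renal collecting duct, gave 7.72, 8.33, 7.58 and 8.10 in NeuNT and 7.74, 6.89, 7.23 and 6.17 in NeuNT/H1074R, in replicate order. As in Cldn4, NeuNT/H1074R replicates 4, 2 and 3 were the lowest tumours, and replicate 1 lay inside the NeuNT range. The log2 difference was −0.93 ± 0.33 (SE), or 1.9-fold lower, with an unadjusted 95% interval from −1.67 to −0.18 (limma, adjusted p = 0.978). The Cldn8 difference was −1.41 without the 2 tumours high in muscle genes, where the groups no longer overlapped, as for 19.6% of all genes. It was −0.64 without NeuNT replicates 2 and 4. Without NeuNT/H1074R replicate 1 alone, the groups of Cldn8 and of Cldn4 did not overlap, nor did those of 6.79% of all genes. The highest signal was in NeuNT replicate 2, the tumour with high basal markers, in which Cldn4 was the lowest of the NeuNT tumours.

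Cldn1 (probe 17329479), a claudin also needed for the skin barrier, gave 10.29, 8.84, 10.51 and 10.43 in NeuNT and 9.16, 9.92, 10.39 and 9.43 in NeuNT/H1074R. NeuNT replicate 2 lay far under its group, and the NeuNT/H1074R tumours spanned most of the range. The log2 difference of −0.29 ± 0.41 (SE) was within the spread (limma, adjusted p = 0.978), and it moved with single tumours, to −0.68 without NeuNT replicate 2, to −0.51 without NeuNT/H1074R replicate 3, to −0.10 without NeuNT/H1074R replicate 1, to −0.13 and −0.15 without NeuNT replicate 3 or 4 and to −0.19 without NeuNT/H1074R replicate 4. Without NeuNT replicates 2 and 4 together it was −0.67.

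Cldn3 (probe 17443148), another claudin of simple epithelia and the neighbour of Cldn4, gave 11.14, 10.21, 11.40 and 10.62 in NeuNT and 10.50, 11.02, 10.89 and 10.69 in NeuNT/H1074R. All 4 NeuNT/H1074R tumours fell inside the NeuNT range, and the lowest and highest signals were in NeuNT replicates 2 and 3. The log2 difference was −0.06 ± 0.26 (SE), with a 95% interval from −0.65 to 0.52 (limma, adjusted p = 0.988), and it changed sign when single tumours were left out (−0.28 to 0.12). Without the 2 tumours high in muscle genes it was 0.02. Without NeuNT replicates 2 and 4 it was −0.49 and the groups no longer overlapped, as they then did not for 13.9% of all genes. Cldn7 (probe 17251829), which is found along the lateral membrane as well as in tight junctions, had the same extremes. It gave 7.91, 7.17, 8.32 and 7.80 in NeuNT and 7.74, 7.46, 7.82 and 7.45 in NeuNT/H1074R. The log2 difference, −0.18 ± 0.24 (SE), was smaller than its error (limma, adjusted p = 0.978). Leaving out NeuNT replicate 2 gave −0.39, leaving out NeuNT replicate 3 gave −0.01, and leaving out NeuNT replicates 2 and 4 together gave −0.50, again without overlap. Without the 2 tumours high in muscle genes it was −0.34.

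Ocln (probe 17295670), the strand protein with 4 membrane spans that regulates junction assembly, gave 8.67, 7.98, 8.06 and 7.95 in NeuNT and 7.98, 8.52, 8.16 and 8.20 in NeuNT/H1074R. NeuNT replicate 1 was well above its group and the other 7 tumours overlapped. The log2 difference was 0.05 ± 0.20 (SE), with a 95% interval from −0.40 to 0.49 (limma, adjusted p = 0.988), and it ran from −0.05 to 0.22 when single tumours were left out. It was 0.19 without the 2 tumours high in muscle genes and −0.15 without NeuNT replicates 2 and 4. Tjp1 (probe 17491853), the scaffold under the strands, gave 9.38, 9.22, 9.51 and 9.55 in NeuNT and 9.83, 9.26, 9.22 and 9.05 in NeuNT/H1074R. One NeuNT/H1074R tumour was above and another 2 at or below the lowest NeuNT tumour, so the spread was wider with mutant p110α (SD 0.34 against 0.15, n = 4 each), a difference in spread that was not tested. The log2 difference was −0.07 ± 0.18 (SE), with a 95% interval from −0.48 to 0.34 (limma, adjusted p = 0.988). Leaving out NeuNT/H1074R replicate 1 gave −0.24, leaving out replicate 4 of that genotype gave 0.02, and leaving out the 2 tumours high in muscle genes gave −0.26.

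F11r (probe 17219362), the immunoglobulin-like adhesion molecule that helps place tight junctions, gave 10.33, 9.64, 10.23 and 10.08 in NeuNT and 9.89, 9.60, 9.82 and 9.58 in NeuNT/H1074R. All NeuNT tumours except replicate 2 lay above every NeuNT/H1074R tumour. The log2 difference of −0.35 ± 0.17 (SE) had a 95% interval from −0.73 to 0.04 and did not pass (limma, adjusted p = 0.978). It was −0.56 without NeuNT replicates 2 and 4, and without replicate 2 alone (−0.49) the groups of F11r and of Cldn4 no longer overlapped, as they then did not for 5.16% of all genes.

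Cdh1 (probe 17505148), the cell adhesion molecule of adherens junctions, varied little, with 10.08, 10.35, 9.83 and 10.34 in NeuNT and 10.51, 10.36, 10.34 and 10.20 in NeuNT/H1074R. The groups overlapped, and the lowest tumour was NeuNT replicate 3, the tumour with the highest Cldn3, Cldn4, Cldn7 and Epcam. The log2 difference was 0.20 ± 0.14 (SE), with a 95% interval from −0.12 to 0.53 (limma, adjusted p = 0.978). It was 0.10 without NeuNT replicate 3, 0.13 without the 2 tumours high in muscle genes and 0.40 without NeuNT replicates 2 and 4. In the last of these fits the groups no longer overlapped, as for 13.9% of all genes. A second Cdh1 probe of much lower signal (17512677, 5.14 to 6.04) differed in the same direction, by 0.34. Epcam (probe 17340272) gave 10.71, 10.18, 10.99 and 10.43 in NeuNT and 10.25, 10.84, 10.64 and 10.84 in NeuNT/H1074R. Both groups covered nearly the same range, and the log2 difference of 0.07 ± 0.20 (SE) had a 95% interval from −0.40 to 0.53 (limma, adjusted p = 0.988), turning to −0.07 without NeuNT replicate 2 and −0.21 without NeuNT replicates 2 and 4. Without the 2 tumours high in muscle genes it was 0.26. For Cdh1, Epcam and Ocln these intervals leave room for differences of about 0.5 in either or one direction.

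**Figure D2:**
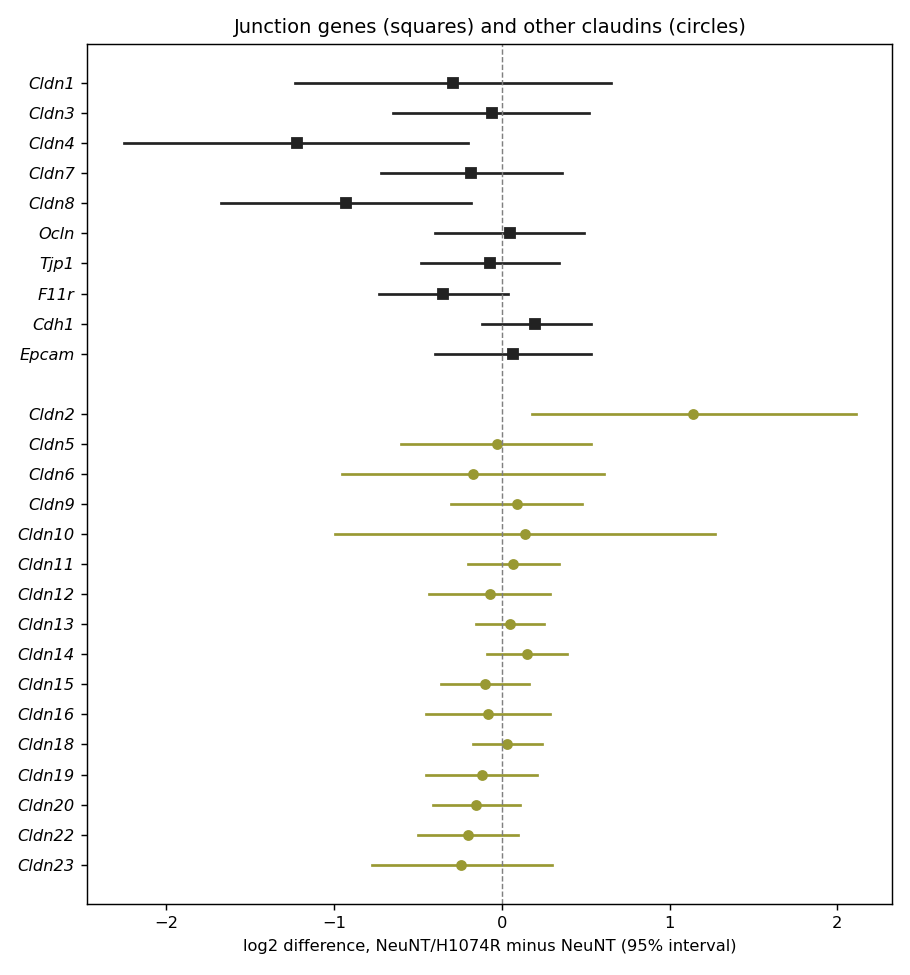
Log2 difference NeuNT/H1074R minus NeuNT (x axis) with its unadjusted 95% interval from limma for the 10 junction genes (squares) and the 16 other claudins tested (circles). The intervals of Cldn4 (−2.25 to −0.20), Cldn8 (−1.67 to −0.18) and Cldn2 (0.18 to 2.11) do not include 0 before adjustment, and none of these genes passed after adjustment over all genes (adjusted p = 0.978).

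The junction genes varied in part together and in part in opposite directions across the tumours, and no pair passed after adjustment. Of the 45 pairs, 29 had a Pearson correlation above 0 over the 8 tumours. An exact two-sided permutation p under 0.05 was found for 9, and 0 passed after Benjamini-Hochberg adjustment over the 45. The share among pairs of all tested genes was not computed, so these counts show nothing particular to junction genes. Cldn3 and Epcam had r = 0.87 and a Spearman coefficient of 0.83 (exact permutation p = 0.00508 and 0.0154, adjusted p = 0.114 and 0.173). Both were lowest in NeuNT replicate 2 and highest in NeuNT replicate 3, and without these 2 tumours r was 0.69. Cldn4 and F11r had r = 0.85 and Spearman 0.95 (exact permutation p = 0.00491 and 0.00114, adjusted p = 0.114 and 0.0513). Here r was 0.87 without the 2 tumours farthest from the median of Cldn4, and 0.73 after each genotype was centred on its mean. Cldn7 and F11r had r = 0.83 and Spearman 0.83 (exact permutation p = 0.00893 and 0.0154, adjusted p = 0.134 and 0.173), with r = 0.89 without NeuNT replicates 2 and 3.

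Cdh1 ran opposite to several of the others. Its correlation was −0.75 with Cldn3 (Spearman −0.69, exact permutation p = 0.0296 and 0.0694, adjusted p = 0.189 and 0.267) and −0.71 with Epcam (Spearman −0.67, exact permutation p = 0.0399 and 0.0831, adjusted p = 0.199 and 0.267). Without the 2 farthest tumours these were −0.65 and −0.62, and after each genotype was centred on its mean they were −0.82 and −0.91. The neighbours Cldn3 and Cldn4 were only weakly related, with r = 0.38 and Spearman 0.33 (exact permutation p = 0.347 and 0.428, adjusted p = 0.557 and 0.602), and r was 0.01 without NeuNT replicates 2 and 3. Cldn4 and Cldn8 had r = 0.70 and Spearman 0.55 (exact permutation p = 0.0556 and 0.171, adjusted p = 0.25 and 0.366), and r fell to 0.41 once genotypes were centred. The relation of Cldn3 with Cldn7 (r = 0.76, Spearman 0.74, exact permutation p = 0.0269 and 0.0458, adjusted p = 0.189 and 0.267) rested on NeuNT replicates 2 and 3, without which r was 0.12.

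**Figure D3:**
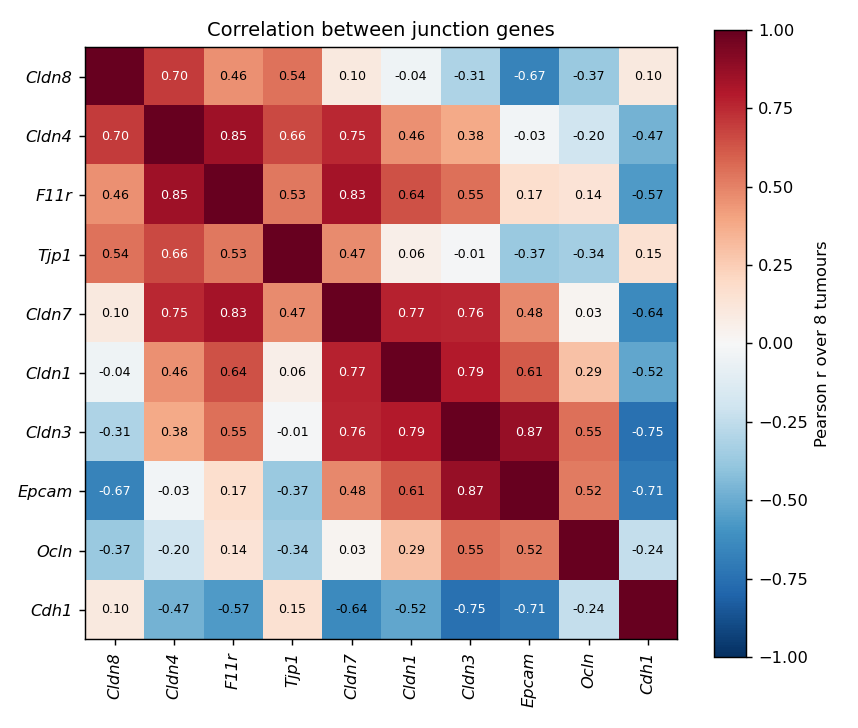
Pearson correlation of log2 signals between each pair of the 10 junction genes over the 8 tumours, red above 0 and blue below 0. Cldn3 with Epcam (0.87) and Cldn4 with F11r (0.85) are the highest, and Cdh1 is at −0.75 with Cldn3 and −0.71 with Epcam.

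Among all tested genes with a common name, the 4 whose signals followed Cldn3 most closely over the 8 tumours were Wdr24 (r = 0.974), Wee1 (r = 0.964), Airn (r = 0.964) and Pigx (r = 0.956). For Epcam they were Ppp1r15b (r = 0.980), Chst10 (r = 0.973), Slc29a3 (r = 0.968) and Ppm1h (r = 0.965). For Cdh1 they were Tle3 (r = 0.977), Cdh15 (r = 0.936), N4bp1 (r = 0.922) and Atp11a (r = 0.920). For Cldn4, added after its values had been seen, they were Ccdc141 (r = 0.969), Wtap (r = 0.961), Pou3f3 (r = 0.961) and Inf2 (r = 0.957). These are the highest of very many correlations over 8 points and describe likeness only, so no p is given. None of these genes is another member of the list. Of the 4 genes that followed Cdh1, 3 (Cdh15, N4bp1 and Atp11a) lie on mouse chromosome 8 as Cdh1 does, where 5.21% of the named tested genes lie, which was looked at after the genes were known. For Cldn3, Cldn4 and Epcam, 0 of 4 lay on the gene's own chromosome.

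Of the rest of the claudin family, 21 further genes were listed and 20 had a probe, and 16 of these lay above the dim level. The genotypes overlapped for all 16, 7 differences were above and 9 below 0, the median was −0.05, and 0 passed (limma, adjusted p of at least 0.978). Cldn17, Cldn24, Cldn34a and Cldn34d were dim, with signals between 1.88 and 3.54. Cldn2, the pore-forming claudin, had the widest difference of the family in the higher direction. Its log2 signals were 5.06, 4.19, 5.04 and 3.33 in NeuNT and 5.69, 5.92, 4.74 and 5.83 in NeuNT/H1074R. Replicates 1, 2 and 4 of NeuNT/H1074R lay above every NeuNT tumour and replicate 3 lay inside the NeuNT range. The log2 difference, 1.14 ± 0.42 (SE) or 2.21-fold higher, missed the threshold (limma, adjusted p = 0.978). It was 0.50 without NeuNT replicates 2 and 4. The signal of NeuNT replicate 4 was under the dim level of 4.06, so the size of the difference is uncertain.

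Cldn10, which forms ion-selective channels, differed between tumours of a genotype more than between genotypes, with 7.67, 6.49, 7.24 and 5.70 in NeuNT and 5.94, 7.57, 6.68 and 7.47 in NeuNT/H1074R. It was high in NeuNT/H1074R replicates 2 and 4, the tumours with the lowest Cldn4 and Cldn8, and highest in NeuNT replicate 1. The log2 difference was 0.14 ± 0.49 (SE) (limma, adjusted p = 0.988) and changed sign with single tumours (−0.22 to 0.47). Cldn6, a claudin of embryonic epithelium, reached 5.33 in NeuNT replicate 2 and 5.16 in NeuNT/H1074R replicate 2, and ran from 3.99 to 4.32 in the other 6 tumours. Cldn5, the claudin of endothelial cells, had a difference of −0.03 ± 0.25 (SE) that changed sign with single tumours (limma, adjusted p = 0.994). The remaining 12 had differences from −0.24 (Cldn23) to 0.15 (Cldn14).

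**Figure D4:**
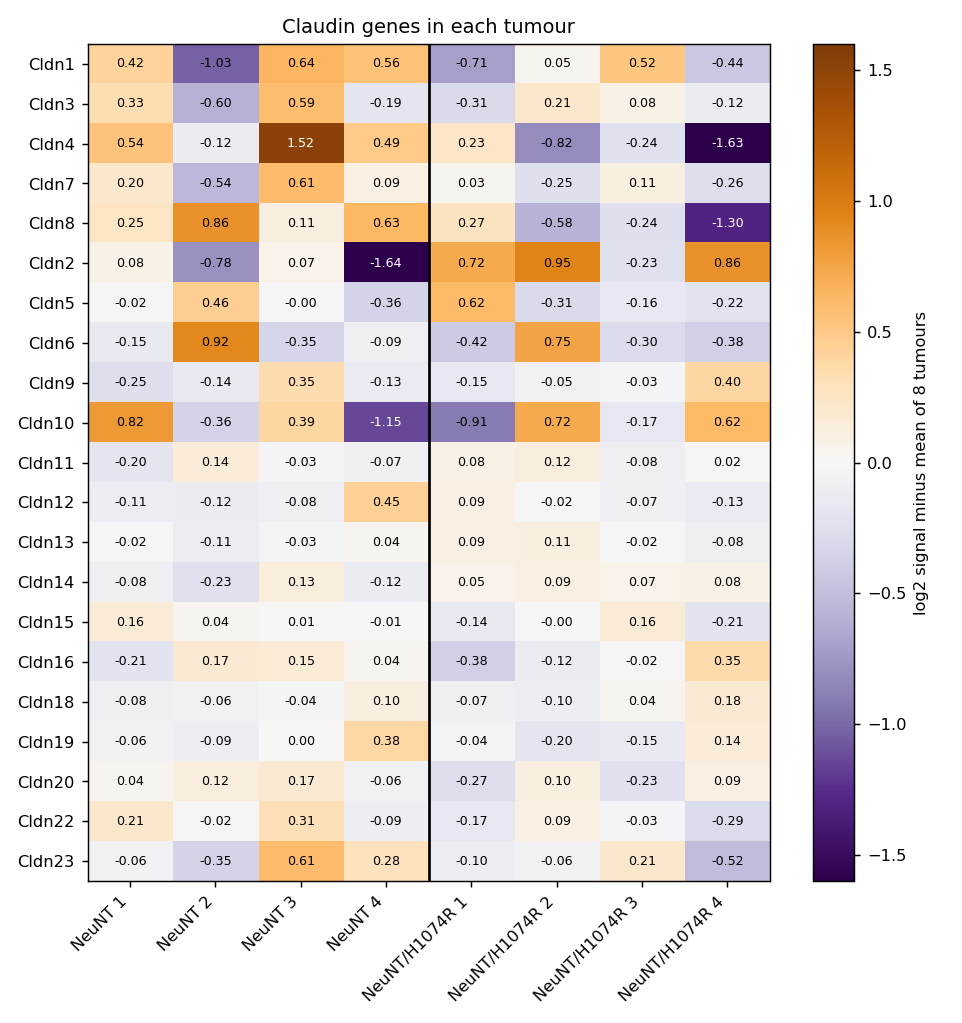
Log2 signal of the 21 tested claudins in each tumour after subtracting the gene's mean over the 8 tumours, the 5 of the junction list first, with a line between the genotypes. Cldn4 and Cldn8 are lowest in NeuNT/H1074R replicate 4, where Cldn2 and Cldn10 are above their means.

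Partner proteins of the same junctions did not separate the genotypes, and 0 genes passed in each of the 7 further lists (limma, adjusted p of at least 0.978). Among other membrane proteins of tight junctions, 3 were higher and 7 lower, with a median of −0.07. The largest difference was in Jam2, a relative of F11r found in vessels and elsewhere, at −0.92 ± 0.46 (SE). It rested in part on NeuNT replicate 3 (8.92, against 6.14 to 7.19 elsewhere), and leaving that tumour out gave −0.44, while leaving out NeuNT replicates 2 and 4 gave −1.50. Marveld3, a relative of Ocln, stood at 0.34 ± 0.31 (SE), with 0.76 without the 2 tumours high in muscle genes and 0.12 without NeuNT replicates 2 and 4, and Jam3 stood at 0.20 ± 0.14 (SE), with 0.33 and 0.10 without the 2 tumours high in muscle genes and without NeuNT/H1074R replicate 4.

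Of the scaffold and polarity genes beneath the strands, 14 were higher and 10 lower, with a median of 0.06. Cgnl1, which encodes paracingulin, a cytoplasmic protein of tight and adherens junctions, gave 9.37, 8.29, 8.38 and 7.67 in NeuNT and 8.41, 9.77, 8.80 and 9.90 in NeuNT/H1074R. As with Cldn10, the high tumours were NeuNT/H1074R replicates 2 and 4 and NeuNT replicate 1. The log2 difference, 0.79 ± 0.44 (SE), missed the threshold (limma, adjusted p = 0.978). It was 1.41 without the 2 tumours high in muscle genes and 0.35 without NeuNT replicates 2 and 4. The polarity genes Pard6b and Mpdz each stood at −0.52, with SEs of 0.24 and 0.26, and Mpdz at −0.32 without NeuNT replicate 2.

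At the adherens junction, 7 partners were higher and 7 lower, with a median of −0.05. Jup, which encodes plakoglobin, a catenin shared with desmosomes, gave 9.35, 9.63 and 9.98 in NeuNT replicates 2 to 4, nearly the last value again in replicate 1, and 11.41, 9.81, 11.45 and 9.81 in NeuNT/H1074R. Its difference of 0.89 ± 0.42 (SE) lay in NeuNT/H1074R replicates 1 and 3, the tumours with high muscle genes, and without both it was 0.07. Jup lies 4 protein-coding genes from Krt17 on mouse chromosome 11, and Krt17, a basal keratin, reached 12.45 and 12.19 in the same tumours against 5.06 to 10.77 in the others. The catenins Ctnna1 and Ctnnd1, which bind the tail of E-cadherin or link it to actin, stood at 0.16 ± 0.12 (SE) and 0.17 ± 0.13 (SE), and both were smaller without NeuNT replicates 2 and 4 (0.06 and 0.04).

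Desmosome genes were higher for 3 and lower for 11, with a median of −0.16, and varied widely within genotypes (median residual SD 0.593). The plakin Ppl stood at −0.65 ± 0.25 (SE) and at −0.41 without NeuNT replicate 4, Dsc3 at −1.43 ± 1.0 (SE) and Evpl at −0.36 ± 0.32 (SE). The desmosome list mean was highest in NeuNT replicate 4 (1.37, against −0.46 to 0.13 elsewhere), the tumour with high squamous and hair markers. Dsc3 reached 8.44 and 8.19 in NeuNT replicates 2 and 4 and turned to 0.53 without them, and Evpl turned to 0.08. Genes acting on EpCAM or found with it were higher for 2 and lower for 5, with a median of −0.04. The membrane protease Prss8 stood at −0.36 ± 0.13 (SE), the protease inhibitor Spint1 at −0.41 ± 0.23 (SE) and the tetraspanin Cd9 at −0.09 ± 0.14 (SE). Spint1 was −0.23 without NeuNT replicate 3 and −0.79 without NeuNT replicates 2 and 4.

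Transcription factors that maintain epithelial genes were higher for 5 and lower for 11, with a median of −0.10 and differences from −0.76 to 0.25. The 3 named by smallest unadjusted p were all higher, unlike most of the list. Ehf stood at 0.25 ± 0.16 (SE), Cdx2 at 0.20 ± 0.13 (SE) and Ovol2 at 0.19 ± 0.14 (SE). Cdx2 signals, from 4.45 to 5.0, were not far above the dim level of 4.06. Repressors of junction genes were higher for 3 and lower for 5, with a median of −0.07, and Twist2 stood at 0.30 ± 0.17 (SE), Tcf3 at −0.24 ± 0.14 (SE) and Snai1 at 0.24 ± 0.21 (SE). Twist2 was 3.98, 4.06 and 3.99 in NeuNT replicates 1, 3 and 4, near the dim level of 4.06, so the size of its difference is uncertain. Without NeuNT replicate 2, Ehf was 0.14, Twist2 0.47 and Tcf3 −0.15. Without the 2 tumours high in muscle genes, Cdx2 was 0.39, Ovol2 0.35, Tcf3 −0.39 and Ehf 0.15. Cdx2 and Ovol2 were each 0.11 without NeuNT/H1074R replicate 4, and Snai1 ran from 0.09 to 0.41 with single tumours left out. Snai2, the Snail-family repressor whose E-box is marked in the windows, was looked at after its values had been seen. It gave 7.24, 10.59, 7.59 and 9.26 in NeuNT and 8.62, 7.15, 9.31 and 6.95 in NeuNT/H1074R. The tumour with the highest Snai2, NeuNT replicate 2, had the lowest Cldn1, Cldn3, Cldn7 and Epcam, while its Cdh1 (10.35) was among the higher. The tumours next in Snai2 were NeuNT/H1074R replicate 3, NeuNT replicate 4 and NeuNT/H1074R replicate 1. In that order, Epcam was 10.64, 10.43 and 10.25, under all tumours of lower Snai2 (10.71 to 10.99). Cldn3 was 10.89, 10.62 and 10.50, against 10.69 to 11.40 in those tumours. Cldn1 was 10.39, 10.43 and 9.16 (against 9.43 to 10.51), and Cldn7 was 7.82, 7.80 and 7.74 (against 7.45 to 8.32). Ocln was 8.16, 7.95 and 7.98 (against 8.06 to 8.67). Cldn4 was 9.57, 10.30 and 10.04 (against 8.18 to 11.33), and F11r was 9.82, 10.08 and 9.89 (against 9.58 to 10.33). Cldn8 was 7.23, 8.10 and 7.74 (against 6.17 to 7.72) and highest, 8.33, in NeuNT replicate 2. Cdh1 was 10.34, 10.34 and 10.51 (against 9.83 to 10.36), and Tjp1 was 9.22, 9.55 and 9.83 (against 9.05 to 9.51). A link of Snai2 with any of these genes was not tested. NeuNT replicate 2 also had the highest signals of the mesenchymal cadherin Cdh2 (8.79, against 5.37 to 6.82 elsewhere) and of the basal cadherin Cdh3 (9.0, against 5.75 to 8.42).

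**Figure D5:**
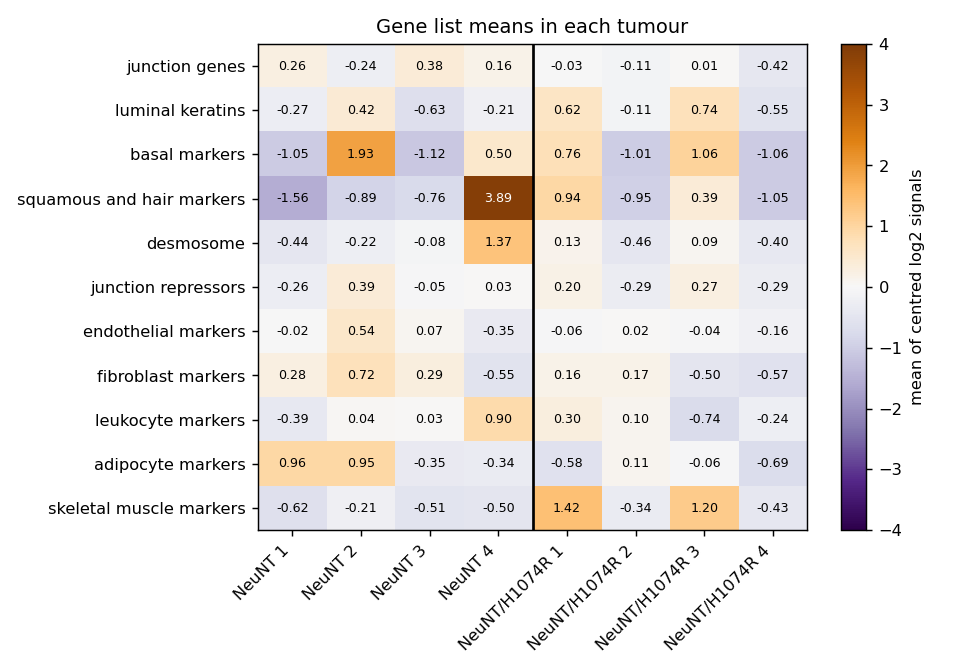
Mean over each gene list of the log2 signals after subtracting each gene's mean over the 8 tumours, by tumour; the junction row holds the 10 genes. NeuNT/H1074R replicates 1 and 3 are high for skeletal muscle (1.42 and 1.20), NeuNT replicate 2 for basal markers (1.93) and NeuNT replicate 4 for squamous and hair markers (3.89).

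The marker lists were set beside the 3 tumours in which Cldn4 and Cldn8 were low. NeuNT/H1074R replicates 2 and 4 had low basal marker means (−1.01 and −1.06), while replicate 3 of that genotype had a high mean (1.06). NeuNT replicates 1 and 3, in which Cldn4 was 10.35 and 11.33, had low basal marker means as well (−1.05 and −1.12). Luminal keratin means were −0.11 and −0.55 in NeuNT/H1074R replicates 2 and 4 and 0.74 in replicate 3, and between −0.63 and 0.42 in NeuNT. The lowest of these means, in NeuNT replicate 3, went with Krt19 at 5.37. In that tumour Krt7 (9.57) and Krt18 (11.36) were the highest of the series. Adipocyte means were −0.58, 0.11, −0.06 and −0.69 in NeuNT/H1074R replicates 1 to 4 and 0.96, 0.95, −0.35 and −0.34 in NeuNT replicates 1 to 4. Of 9 adipocyte markers 8, and of 15 leukocyte markers 14, had a lower mean in NeuNT/H1074R, as did 10 of 12 fibroblast and 9 of 12 endothelial markers. Over all tested genes, 8406 of 16635 had a lower mean. In each of these lists 0 genes passed. All markers were measured in the same 8 tumours, so the markers of a list are not independent counts. Leukocyte means ran from −0.39 to 0.90 in NeuNT and from −0.74 to 0.30 in NeuNT/H1074R, and fibroblast means from −0.55 to 0.72 and from −0.57 to 0.17. The part of any of these cell types in the Cldn4 and Cldn8 values was not tested.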

How the data were processed

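Gene expression was measured on 1 Affymetrix array for each of 8 tumours. The authors deposited a table of 41345 probes with log2 signals. The submitters' processing notes name Affymetrix Expression Console and Transcriptome Analysis Console; how background was corrected and arrays were normalized is not given in the sources used. That the scale is log2 follows from the range of values (0.887 to 13.6), which were not transformed further. Probes with 1 gene symbol in the platform annotation (23521) gave 22180 genes, each represented by its probe of highest mean; the lower 25% by mean (under 4.06) were left out as dim, and limma 3.58.1 (R 4.3.3) was fitted to 16635 genes (lmFit and eBayes with an intensity trend, no covariate, two-sided, Benjamini-Hochberg over all tested genes, threshold 0.05). The fit and the permutation test were tested on simulated data. Member pairs were compared with exact permutations of pairings. No arrays were identical, and correlations between tumours ran from 0.89 to 0.98. Precision is limited by the number of arrays.

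The members and the 17 gene lists were chosen with earlier results of these data known. Named are all members, all other claudins above the dim level, up to 3 genes of smallest unadjusted p for each junction list, and the 4 genes most correlated with Cldn3, Cdh1 and Epcam (predicted, clone and receptor-cluster names left out); others were named after their values were seen. Alternatives left out tumours singly or in pairs, normalized by quantiles, centred arrays on their medians, changed the dim filter, averaged probes, dropped the trend or weighted arrays. Promoter windows came from RefSeq (GRCm38.p6), and the set of windows held none for Cldn8 and Cdh1. Figures were drawn with matplotlib 3.10.9.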

Additional observations from a re-analysis of the deposited data

Results flagged for a closer look

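Within a genotype, 8 of 94 groups of 4 tumours had 1 value far from the other 3, where chance gives about 1 in 20. Among the junction genes, Cldn1 was 8.84 in NeuNT replicate 2, against 10.29 to 10.51 in the other NeuNT tumours, and Ocln was 8.67 in NeuNT replicate 1, against 7.95 to 8.06. Cldn5 was 6.14 in NeuNT/H1074R replicate 1, against 5.21 to 5.36 in its group. Cldn6 was 5.16 in NeuNT/H1074R replicate 2, against 3.99 to 4.11. In NeuNT replicate 4, Cldn12 was 6.6, against 6.03 to 6.07. Ctnnd1 was 8.96 in NeuNT/H1074R replicate 3, against 9.30 to 9.33. Cd9 was 10.03 in NeuNT replicate 3, against 10.53 to 10.60. Twist2 was 4.68 in NeuNT replicate 2, against 3.98 to 4.06.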

How the results depend on the processing

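Of 170 member values under the alternatives, 11 changed direction and 0 passed the threshold. With single tumours left out, Cldn4 ran from −1.50 to −0.88, Cldn8 from −1.17 to −0.65, F11r from −0.49 to −0.26, Cldn1 from −0.68 to −0.10, Cldn7 from −0.39 to −0.01 and Cdh1 from 0.10 to 0.27, all keeping their direction. Directions changed for Cldn3 (−0.28 to 0.12), Ocln (−0.05 to 0.22), Tjp1 (−0.24 to 0.02) and Epcam (−0.07 to 0.20), and for Cldn5 (−0.25 to 0.11), Cldn6 (−0.45 to 0.11), Cldn10 (−0.22 to 0.47), Cldn12 (−0.12 to 0.07), Cldn16 (−0.21 to 0.03), Cldn9 (−0.03 to 0.22) and Cldn18 (−0.02 to 0.07); the cause was not tested. Without both tumours with high muscle genes, Cldn3 was 0.02, Cldn6 0.10, Cldn16 0.07, Cldn20 0.03 and Snai1 −0.06. Without NeuNT replicates 2 and 4, a fit added after the data had been seen, Ocln was −0.15, Epcam −0.21, Cldn6 0.16, Cldn10 −0.54, Cldn12 0.06, Dsc3 0.53, Evpl 0.08 and Cd9 0.02. With quantile normalization Cldn18 stood at 0.00.

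The count of genes past the threshold was 0 in limma in each alternative except without NeuNT replicates 2 and 4, where it was 1 (unadjusted p under 0.05: 369 to 925 genes with single tumours left out). The count of members whose groups did not overlap ran from 0 to 2 with single tumours left out, where 3.88% to 6.88% of all genes did not overlap. It was 3 (Cldn4, Cldn8 and F11r) without the 2 tumours high in muscle genes, where 19.6% of all genes did not overlap. Without NeuNT replicates 2 and 4 it was 5 (Cdh1, Cldn3, Cldn4, Cldn7 and F11r), where 13.9% of all genes did not overlap. The cause was not tested. The count of member pairs past the threshold stayed at 0 in each alternative, with 7 to 12 of 45 at an unadjusted exact p under 0.05. No share over pairs of all tested genes was computed beside it. The 4 tumours per genotype leave the median junction gene with an SD of 0.338. No paired analysis was possible because the labels give the tumours of the genotypes no shared number.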
